A study of Callithrix jacchus with 39 samples.

Results

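The mitochondrial ribosomal proteins of the common marmoset, Callithrix jacchus, were followed in embryonic stem cells (ESCs) and early embryos. Members were the rows of the gene count table whose symbol is MRPL or MRPS followed by a digit, a rule that used no measured value. It took 50 of 30811 gene IDs, of which 12660 had a symbol. They comprised 32 MRPL and 18 MRPS symbols, and since MRPS18A belongs to the large subunit despite its symbol, 33 were counted as large subunit and 17 as small subunit proteins. Some members descend from bacterial ribosomal proteins and others were added in the mitochondrial lineage, and the 2 classes are counted separately where a list is described. MRPS18A and MRPS18B, though relatives of bacterial S18, are counted in the class specific to mitochondria. A further 27 mitochondrial ribosomal proteins on the written list had no row with their symbol and were not analysed here. Poly(A)+ RNA had been sequenced in 39 libraries, in 13 groups of 3 libraries. The ESC groups were naive cells titled DSY-c2 with TgON, primed cells titled DSY-c2 with Tg, primed DSY127 cells, naive cells titled N40 with TgOFF, primed cells titled N40 with Tg, and primed No.40 cells. Embryos were taken as whole morulae, as inner cell masses (ICM) of blastocysts titled early, blastocyst, expanded, hatching or hatched, and as postimplantation epiblast. The labels do not define Tg, TgON or TgOFF and give no age, medium or passage, so Tg state and cell line cannot be told apart in the naive groups. The series' title names conversion of primed cells to a naive-like state as the subject of the study.

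Mitochondria translate the few proteins encoded in their own genome on a ribosome of their own, whose RNA comes from that genome and whose proteins are made from nuclear genes, imported and assembled in the matrix. Its small subunit binds the messenger RNA and decodes it, and its large subunit joins amino acids and releases the chain towards the inner membrane, where all protein products in mammals are parts of the respiratory chain and ATP synthase. Early mammalian embryos carry structurally immature mitochondria inherited from the oocyte, and naive and primed pluripotent cells, studied mostly in mouse and human, are known to differ in their use of respiration and glycolysis.

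Total counts were 38.8 to 78.7 M (mega) in the ESC libraries and 45.3 to 59.0 M in the embryo libraries, and every member had counts in every library, with a summed member count of 83482 to 450923. All 50 members passed the low-count filter in both fits, which were made separately over the 18 ESC and the 21 embryo libraries. Levels are given as CPM, a gene's counts scaled to a common library size, after correction of the library sizes by the trimmed mean of M values (TMM) within ESCs or within embryos, unless another scale is named. Changes were tested with edgeR's quasi-likelihood method over all genes, with a call at an adjusted p under 0.05 by Benjamini and Hochberg's method. They are given as log2 fold changes ± SE, and every adjusted p below comes from this test. Nothing in the labels says that the 3 libraries of a group are from different cultures or embryos, so p-values measure only how these libraries spread, which may be technical. Neither the treatment of near-identical gene copies, such as processed pseudogenes of ribosomal protein genes, nor the strand setting of the counting is given in the sources used here. In bulk RNA, fewer cells of a type and less RNA per cell cannot be told apart. Of 5 pluripotency markers, all were at 1 CPM or more in each ESC group, while LIN28A was at 0 in the early, blastocyst and expanded ICM.

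Summed over the 50 members, the level was highest in the preimplantation embryo, lower in ESCs and lowest in the epiblast, with naive cells above primed cells in both lines. The morula libraries summed to 6381, 5233 and 6709 CPM, and the 15 ICM libraries had a lowest, median and highest sum of 4218, 6176 and 8355 CPM. The epiblast libraries summed to 1518, 1582 and 1612 CPM, below every morula and ICM library. In ESCs, the DSY-c2 naive libraries summed to 3817, 4027 and 4278 CPM, against 2658, 2646 and 2664 CPM in DSY-c2 primed libraries. The N40 naive libraries summed to 4798, 4587 and 4733 CPM, against 3106, 3435 and 3318 CPM in N40 primed libraries. DSY127 summed to 2490.0, 2549 and 2538 CPM and No.40 to 2478, 2715 and 2582 CPM. Within each ESC pair the naive libraries lay above all primed libraries, and the N40 primed libraries lay above those of DSY127, No.40 and DSY-c2. ESC and embryo sums in these sentences are on separate TMM scales. On 1 TMM scale over all 39 libraries the sums were 5572 to 7194 CPM in the morula, 4519 to 9038 CPM in ICM, 3344 to 4195 CPM in naive ESC, 2456 to 3352 CPM in primed Tg ESC, 2206 to 2431 CPM in DSY127 and No.40 and 1663 to 1788 CPM in epiblast libraries.

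Large and small subunit sums followed this order alike, as the plot of summed levels shows. The ratio of summed small subunit to summed large subunit counts averaged 0.373 ± 0.0116 in the morula, 0.418 ± 0.0194 in the early ICM, 0.409 ± 0.0269 in the hatched ICM and 0.455 ± 0.0150 in the epiblast (SD, n = 3 each). In ESCs it was 0.448 ± 0.0168 in DSY-c2 naive cells and 0.459 ± 0.0113 in DSY-c2 primed cells, and 0.455 ± 0.00452 in N40 naive cells and 0.455 ± 0.00421 in N40 primed cells. These ratios are of counts that are not corrected for gene length, so only their differences between groups can be read.

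**Figure D1:**
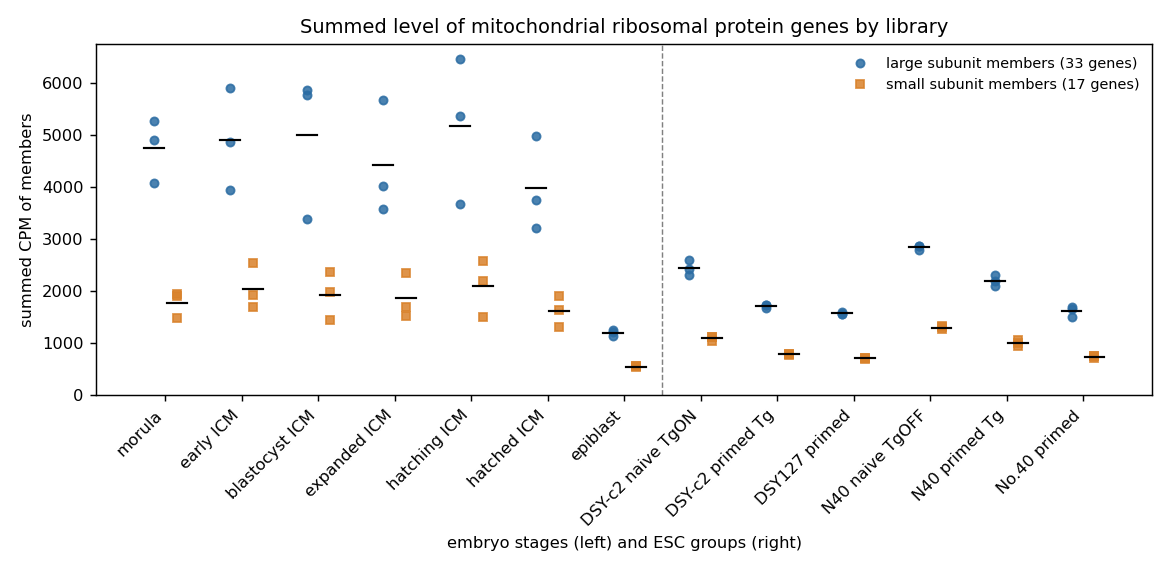
Summed CPM (linear axis) of the 33 large subunit members (circles) and the 17 small subunit members (squares) in each library, by group, on a TMM scale over all 39 libraries; bars are group means of 3 libraries and the dashed line parts embryo stages from ESC groups. The epiblast points lie below those of every other group, and the naive points of each ESC line lie above its primed points.

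In DSY-c2, mitochondrial ribosomal protein transcripts were higher in naive than in primed cells. Of the 50 members, 45 were called higher, where 29.6% of all 17957 genes tested were called higher, and 0 were called lower, where 29.3% of all genes were. The median log2 fold change over members was 0.60, against 0.03 over all genes tested, and 8 of the called members rose by 2-fold or more. In each of the 45 called members the 3 naive libraries lay above the 3 primed libraries. By class, 18 of 20 large subunit proteins with bacterial homologues rose, as did 11 of 13 that are specific to mitochondria, 8 of 9 small subunit proteins with bacterial homologues and 8 of 8 specific ones.

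MRPL41, a large subunit protein specific to mitochondria, had 19.6, 21.1 and 29.3 CPM in naive DSY-c2 libraries, against 7.54, 7.55 and 6.51 CPM in primed DSY-c2 libraries. The naive libraries were all higher, a 3.24-fold rise (log2 fold change 1.70 ± 0.19, adjusted p = 1.00e-06). MRPS18B, a relative of bacterial S18 in the small subunit, had 70.9, 79.4 and 84.1 CPM in naive DSY-c2 libraries, against 24.6, 31.6 and 28.2 CPM in primed DSY-c2 libraries. It rose 2.78-fold (log2 fold change 1.47 ± 0.12, adjusted p = 5.31e-08), with no overlap between the groups. MRPL24, the homologue of bacterial L24, had 89.3, 92.8 and 118 CPM in naive DSY-c2 libraries, against 44.0, 39.6 and 44.3 CPM in primed DSY-c2 libraries. Naive levels were 2.35 times primed levels (log2 fold change 1.23 ± 0.12, adjusted p = 2.64e-07). The homologue of bacterial S11, MRPS11, had 47.0, 58.0 and 50.6 CPM in naive and 21.3, 27.0 and 22.7 CPM in primed libraries (log2 fold change 1.13 ± 0.14, adjusted p = 5.02e-06). MRPL47, the homologue of bacterial L29, had 148, 159 and 176 CPM in naive and 76.9, 68.7 and 75.7 CPM in primed libraries (log2 fold change 1.13 ± 0.09, adjusted p = 3.81e-08), and in both genes the lowest naive library exceeded the highest primed one. Changes of 2-fold or more were measured in MRPL46, MRPS25 and MRPL52, all specific to mitochondria, with log2 fold changes of 1.06 ± 0.13, 1.03 ± 0.11 and 1.01 ± 0.12. MRPL35, the homologue of bacterial L35, and MRPS22, specific to the mitochondrial small subunit, completed the 10 largest rises with 0.91 ± 0.10 and 0.90 ± 0.08.

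Members chosen for their place in the ribosome moved unequally. MRPL12, which forms the stalk that recruits translation factors, had 114, 135 and 121 CPM in naive and 76.9, 77.4 and 71.9 CPM in primed DSY-c2 libraries (log2 fold change 0.71 ± 0.10, adjusted p = 1.29e-05). MRPL10, the base of that stalk, had 111, 111 and 112 CPM in naive and 72.6, 80.4 and 75.2 CPM in primed libraries (log2 fold change 0.55 ± 0.07, adjusted p = 8.37e-06). Both stalk proteins were separated between the groups. MRPS18A, the S18 relative in the large subunit, rose by 0.70 ± 0.07 (adjusted p = 2.26e-07). MRPL45, which lies at the exit tunnel and anchors the ribosome to the inner membrane, rose by 0.32 ± 0.08 (adjusted p = 0.00214), a call that ended with library totals in place of TMM (adjusted p = 0.0844). MRPL3, the homologue of a large subunit protein near the peptidyl transferase centre, had 156, 164 and 189 CPM in naive and 153, 151 and 159 CPM in primed libraries. These overlapped, and it was not called (log2 fold change 0.14 ± 0.08, adjusted p = 0.138). The other 4 members not called were MRPL54 (0.36 ± 0.16, adjusted p = 0.0685), MRPS24 (0.19 ± 0.09, adjusted p = 0.0679), MRPL19 (0.14 ± 0.08, adjusted p = 0.12) and the RNase III-like MRPL44 (0.15 ± 0.09, adjusted p = 0.154). Among members at the ends of the range of levels, MRPS14, the homologue of bacterial S14, rose by 0.77 ± 0.11, and MRPL4, the homologue of bacterial L4, by 0.62 ± 0.10.

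Among the marker lists of other cells, only the fibroblast sums were separate between naive and primed DSY-c2 libraries, and calls went both ways. The 5 fibroblast markers summed to 75.4 to 209.8 CPM in naive and 300.0 to 388 CPM in primed DSY-c2 libraries, with 1 called higher and 2 lower. The 4 trophectoderm markers summed to 17.2 to 197 CPM in naive and 67.6 to 122 CPM in primed libraries (2 called higher), and the 4 primitive endoderm markers to 33.3 to 50.8 CPM in naive and 31.2 to 451 CPM in primed libraries (1 called higher, 1 lower), the highest sum being that of primed replicate 4. The 2 amnion markers summed to 0.425 to 5.01 CPM in naive and 0.523 to 2.68 CPM in primed libraries (1 called higher), and of the 5 pluripotency markers 1 was called higher and 2 lower. Their part in the result was not tested. Leaving out 1 library at a time left 42 to 44 members called higher, with 43 called when primed replicate 4 was left out. Naive replicate 3 carries other column suffixes than the remaining DSY-c2 libraries, and the part of this was not tested. With library totals in place of TMM, 40.4% of all calls in the comparison were higher, against 50.3% with TMM, and 40 members were called higher; in 1 fit of all 39 libraries, where ESCs take on a spread shared with embryos, 7 were, where 4.24% of all genes were called higher.

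In N40 the same direction was measured. Naive cells had 41 members called higher, where 32.3% of all genes were called higher, and 1 called lower, where 28.7% of all genes were. The median log2 fold change over members was 0.53, against 0.09 over all genes tested, and 5 members rose by 2-fold or more. Of the 41 members called higher, 39 had no overlap between naive and primed libraries, the others being MRPL11 and MRPL44. By class, 16 of 20 large subunit proteins with bacterial homologues and 10 of 13 classed as specific to mitochondria rose. So did 8 of 9 small subunit proteins with homologues and 7 of 8 classed as specific.

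MRPS18B had 98.0, 108 and 124 CPM in naive N40 libraries, against 30.4, 34.7 and 36.5 CPM in primed N40 libraries. Every naive library exceeded every primed one, by 3.25-fold in the fit (log2 fold change 1.70 ± 0.12, adjusted p = 9.35e-09). MRPL41 had 31.4, 31.7 and 37.7 CPM in naive and 11.5, 10.5 and 12.3 CPM in primed libraries (log2 fold change 1.56 ± 0.18, adjusted p = 1.90e-06). MRPL47 had 252, 265 and 245 CPM in naive and 93.0, 109 and 110.1 CPM in primed libraries (log2 fold change 1.29 ± 0.09, adjusted p = 7.29e-09), and neither gene overlapped between the groups. MRPL46 rose by 1.04 ± 0.13 and MRPS11 by 1.02 ± 0.14, the other members with a rise of 2-fold or more. MRPL13, the homologue of bacterial L13, had 65.9, 65.4 and 68.2 CPM in naive and 31.9, 35.0 and 33.6 CPM in primed libraries (log2 fold change 0.99 ± 0.09, adjusted p = 1.01e-07). MRPL37, specific to mitochondria, had 236, 222 and 235 CPM in naive and 108, 134 and 129 CPM in primed libraries (log2 fold change 0.90 ± 0.08, adjusted p = 1.24e-07), so the groups stood apart in both. MRPS18A rose by 0.87 ± 0.07, MRPL35 by 0.86 ± 0.10 and MRPS22 by 0.79 ± 0.08.

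MRPL40, a large subunit protein specific to mitochondria, was the single member called lower. It had 33.4, 34.4 and 35.5 CPM in naive N40 libraries, against 47.5, 49.98 and 46.5 CPM in primed N40 libraries. All 3 naive libraries were below the primed libraries, and MRPL40 fell by 0.48 ± 0.11 on the log2 scale (adjusted p = 0.00145). Both stalk members had positive changes in this line, of which only that of MRPL10 was called, and a difference between them was not tested. MRPL10 rose by 0.57 ± 0.07, while MRPL12 had 194, 160.5 and 174 CPM in naive and 145, 159.6 and 153 CPM in primed libraries, which was not called (0.21 ± 0.10, adjusted p = 0.0776). MRPL3 had 158, 151 and 148 CPM in naive and 148, 164 and 155 CPM in primed libraries, an overlap in both directions (-0.04 ± 0.08, adjusted p = 0.704). MRPL45 and MRPL4 were not called either, at 0.17 ± 0.08 (adjusted p = 0.0694) and 0.24 ± 0.10 (adjusted p = 0.0556), and the remaining uncalled members were MRPL21, MRPL43, MRPS15 and MRPS23. MRPS14 rose by 0.68 ± 0.11 and MRPL54, specific to mitochondria, by 0.73 ± 0.16.

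Fibroblast markers summed to 203 to 503 CPM in naive and 501 to 776 CPM in primed N40 libraries, and trophectoderm markers to 51.99 to 92.4 CPM in naive and 6.53 to 8.33 CPM in primed libraries, where CDX2 was at 0. Primitive endoderm markers summed to 57.2 to 112 CPM in naive and 10.2 to 21.2 CPM in primed N40 libraries, and amnion markers to 0.551 to 0.951 CPM in naive and 1.22 to 2.18 CPM in primed N40 libraries, with 1 of 2 called lower. In naive N40 cells all 4 trophectoderm markers were called higher, as were 3 of 5 fibroblast and 2 of 4 primitive endoderm markers, with 1 fibroblast marker lower. Of the pluripotency markers 2 were called higher and 1 lower in naive N40 cells, and the part of these markers in the result was not tested. Leaving out 1 library at a time left 30 to 36 members called higher and 1 or 2 called lower, and in 1 fit of all 39 libraries 4 were called higher and 0 lower, where 5.71% and 6.93% of all genes were. The second member called lower was MRPS15, the homologue of bacterial S15, without N40 primed replicate 1 and with library totals alone.

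Both lines shared most of these calls. A total of 37 of the 50 members were called higher in naive cells of both lines, where 22.9% of all genes were, and 0 were called lower in both, where 22% of all genes were. The 2 comparisons share no library. Over the 50 members, the log2 naive effects of the 2 lines had Pearson's r of 0.759 and Spearman's rho of 0.703, and over all 17957 genes 0.749 and 0.755. These correlations are across genes, which are not independent, and each line's effects share a scaling and a spread. MRPL40 had opposite signs in the lines, with 0.46 ± 0.11 in DSY-c2, where it was called higher (adjusted p = 0.002), and a call in the other direction in N40.

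**Figure D2:**
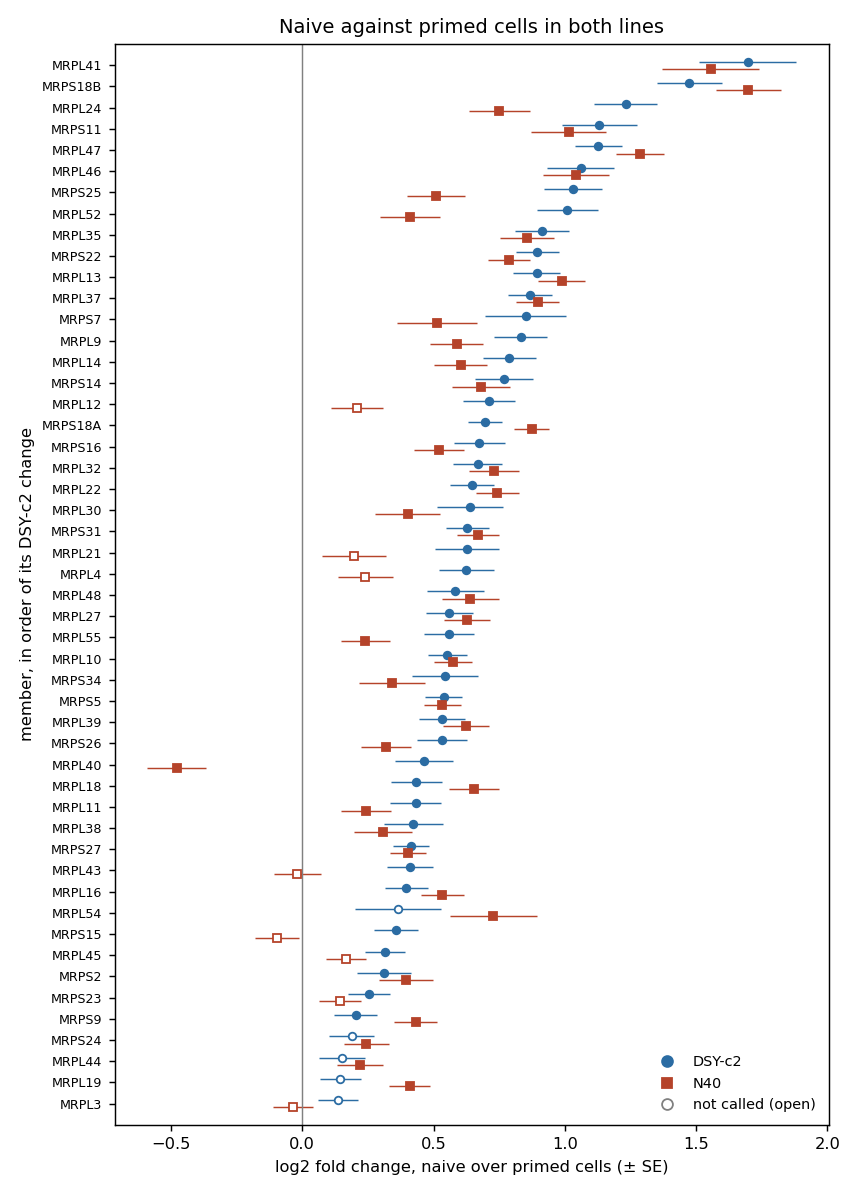
Log2 fold change of naive over primed cells ± SE for each of the 50 members in DSY-c2 (circles) and N40 (squares), ordered by the change in DSY-c2; open symbols were not called. MRPL41 and MRPS18B have the largest changes, all DSY-c2 symbols lie above 0, and MRPL40 lies below 0 in N40.

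The naive effect itself differed between the lines for 6 members, all with the larger value in DSY-c2. The interaction term was called positive for 6 of 50, where 6.55% of all genes were, and negative for 0, where 8.57% of all genes were. In either direction 12% of members were called, against 15.1% of all genes, so members were not called more often than genes at large. For MRPL40 the DSY-c2 effect minus the N40 effect was 0.94 ± 0.16 on the log2 scale (adjusted p = 0.00115). Its levels were 35.3, 41.7 and 52.6 CPM in naive and 32.5, 30.0 and 31.5 CPM in primed DSY-c2 libraries, so that naive cells lay above primed cells in DSY-c2 and below them in N40. For MRPL52 the difference was 0.60 ± 0.16 (adjusted p = 0.0197), for MRPS25 0.52 ± 0.16 (adjusted p = 0.0333) and for MRPL12 0.50 ± 0.14 (adjusted p = 0.0225). MRPS15, the homologue of bacterial S15, differed by 0.45 ± 0.12 (adjusted p = 0.0176) and MRPL43, specific to mitochondria, by 0.43 ± 0.12 (adjusted p = 0.0286). MRPL52 had 71.0, 61.0 and 72.0 CPM in naive and 43.2, 58.4 and 51.9 CPM in primed N40 libraries, a smaller step than in DSY-c2. Without N40 primed replicate 2, 3 of the 6 remained called, and MRPL52, MRPS25 and MRPL12 had adjusted p of 0.0515, 0.0624 and 0.0519; without N40 primed replicate 3, MRPS25 had 0.0616, and with library totals 0.0635. The MRPL43 call ended with library totals (adjusted p = 0.051) and without N40 primed replicate 1 (adjusted p = 0.0589) or N40 naive replicate 3 (adjusted p = 0.0501). The lines also differ in TgON and TgOFF, which cannot be told apart from the line, and in 1 fit of all 39 libraries 0 members were called, where 0.064% of all genes were. All DSY-c2 libraries but naive replicate 3 carry other column suffixes than the N40 libraries, and the part of this was not tested.

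The primed Tg cells were also set against primed cells of the line with the related title. Between DSY-c2 primed Tg and DSY127 cells, 0 members were called with edgeR, where 1.88% of all genes were; 1 had an unadjusted p under 0.05, and DESeq2 called 0. Between N40 primed Tg and No.40 cells, 37 members were called higher, where 8.3% of all genes were, and 2 lower, where 13.6% of all genes were. The median over members was 0.38 and over all genes -0.05. The pairing of N40 with No.40 rests on the titles, which do not state that they are 1 line. All DSY-c2 primed Tg libraries and No.40 replicate 1 carry other column suffixes than the DSY127, N40 primed Tg and remaining No.40 libraries. The part of these suffixes was not tested.

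MRPS34, a small subunit protein specific to mitochondria, had 53.5, 64.6 and 63.3 CPM in primed N40 Tg libraries, against 27.6, 29.3 and 28.8 CPM in No.40 libraries. The groups did not overlap, and the rise of 2.12-fold was the sole one of 2-fold or more (log2 fold change 1.08 ± 0.13, adjusted p = 5.91e-05). MRPL12 had 145, 159.6 and 153 CPM in N40 Tg and 76.2, 101 and 88.6 CPM in No.40 libraries (log2 fold change 0.78 ± 0.10, adjusted p = 9.95e-05). MRPL41 rose by 0.71 ± 0.18 (adjusted p = 0.0117) and MRPL47 by 0.61 ± 0.09 (adjusted p = 0.000297), and both rose again in naive against primed N40 cells. MRPS24, the homologue of bacterial S3, went the other way, with 30.1, 33.6 and 31.3 CPM in N40 Tg and 50.2, 59.0 and 54.0 CPM in No.40 libraries. All N40 Tg libraries were lower, and it fell by 0.78 ± 0.09 (adjusted p = 3.88e-05). MRPL32, the homologue of bacterial L32, fell by 0.42 ± 0.09 (adjusted p = 0.00518), a call lost without No.40 replicate 2 (adjusted p = 0.0557) or replicate 3 (adjusted p = 0.0858). Fibroblast markers summed to 501 to 776 CPM in N40 Tg and 1133 to 2209.7 CPM in No.40 libraries, with 4 of 5 called lower in N40 Tg cells. Trophectoderm markers summed to 6.53 to 8.33 CPM in N40 Tg and 9.86 to 40.0 CPM in No.40 libraries, and primitive endoderm markers to 10.2 to 21.2 CPM in N40 Tg and 20.1 to 378 CPM in No.40 libraries, with 2 of 4 called lower in each list, and the part of these markers in the result was not tested. A fit of these 2 groups alone called 16 higher, where 4.22% of all genes were, and 1 lower, where 6.29% were. In 1 fit of all 39 libraries, 1 member was called higher, where 0.155% of all genes were, and 0 lower, where 1.27% were. Of all calls, 37.8% were higher with TMM within ESCs, 26.1% with library totals and 56.0% with TMM over all 39 libraries.

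Between the primed lines DSY127 and No.40, 3 members were called higher in DSY127, where 2.65% of all genes were, and 1 lower, where 1.82% of all genes were. MRPS15 had 33.4, 34.5 and 36.3 CPM in DSY127 and 46.1, 49.6 and 45.7 CPM in No.40 libraries. The DSY127 libraries were all lower, and MRPS15 fell by 0.44 ± 0.08 (adjusted p = 0.00707). MRPL13 was higher in DSY127 by 0.38 ± 0.09 (adjusted p = 0.0211), MRPS9, the homologue of bacterial S9, by 0.35 ± 0.08 (adjusted p = 0.0203) and MRPL44 by 0.33 ± 0.09 (adjusted p = 0.0444). The MRPL13 call ended without DSY127 replicate 2 or 3 or No.40 replicate 3 (adjusted p = 0.0979, 0.102 and 0.0925), the MRPS9 call without any single library (adjusted p = 0.059 to 0.134) and the MRPL44 call without any single library but No.40 replicate 1 (adjusted p = 0.0994 to 0.179). A fit of both groups alone called 0 higher, where 1.48% of all genes were; DESeq2 called 5 lower, where 4.14% of all genes were, and without No.40 replicate 1 edgeR called 3 lower, namely MRPS15, MRPS26 and MRPL12.

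Through preimplantation development few members were called. In early blastocyst ICM against morula, 1 member was called higher, where 3.89% of all genes were, and 1 lower, where 2.27% of all genes were. Both were relatives of bacterial S18. MRPS18B, of the small subunit, had 261, 249 and 91.7 CPM in early ICM and 59.9, 70.8 and 84.97 CPM in morula libraries (log2 fold change 1.48 ± 0.40, adjusted p = 0.0369). MRPS18A, of the large subunit, had 55.1, 41.4 and 71.5 CPM in early ICM and 176, 94.9 and 150.0 CPM in morula libraries, and fell by 1.32 ± 0.38 (adjusted p = 0.0461). Neither overlapped between the stages, but early ICM replicate 3 lay close to the morula libraries for MRPS18B. The MRPS18B call ended without any single library but early ICM replicate 3 (adjusted p = 0.0636 to 0.141), and the MRPS18A call without any but morula replicate 2 (adjusted p = 0.0574 to 0.163). A fit of both stages alone called neither, and 1.64% of all genes. DESeq2 called 1 member higher and 3 lower, where 7.83% and 8.46% of all genes were, and 1 fit of all 39 libraries called 4 higher and 6 lower, where 11.3% and 12.4% of all genes were, so in both settings the members' shares were at or below those of all genes. In the following steps 0 members were called with edgeR. Of all genes, 0.0295% were called from early to blastocyst ICM, 0% from blastocyst to expanded, 0% from expanded to hatching and 0% from hatching to hatched ICM. At an unadjusted p under 0.05, 1, 0, 2 and 5 members passed in those 4 steps. DESeq2 called 0 members in each of them as well, where it called 6.43%, 1.93%, 1.51% and 1.33% of all genes in the order of the steps. The median over members of the coefficient of variation between the 3 libraries of a group was 29.2% to 33.3% in the morula and ICM groups, 14.8% in epiblast and 4.12% to 8.59% in the ESC groups. An F test over all 7 stages called 39 members, where 38% of all genes were called.

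The epiblast stood apart. Set against the mean of the 5 ICM stages, 47 of 50 members were called lower in epiblast, where 18.7% of all genes were, and 0 higher, where 26.1% of all genes were. The median log2 fold change was -2.19 over members and 0.20 over all genes, with falls of at least 2-fold in 46 members, 4-fold in 33 and 8-fold in 8. Of the 47 called members, 43 had no overlap between the 3 epiblast and the 15 ICM libraries, and the others were MRPL19, MRPS16, MRPS2 and MRPS9. By class, 19 of 20 large subunit proteins with bacterial homologues fell, as did 12 of 13 specific to mitochondria, 9 of 9 small subunit proteins with homologues and 7 of 8 specific ones. Against the hatched ICM alone, 41 members were called lower, where 12.7% of all genes were, and 0 higher, where 7.22% were, with a median of -2.09. These 2 comparisons share the epiblast and hatched ICM libraries.

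MRPL24, the homologue of bacterial L24, had 6.66, 9.10 and 9.93 CPM in epiblast libraries, against a lowest, median and highest of 60.6, 112 and 181 CPM in ICM libraries. No epiblast library reached the lowest ICM library, and MRPL24 fell by 3.76 ± 0.39 on the log2 scale (adjusted p = 2.49e-06), or 13.6-fold. MRPL52, specific to the mitochondrial large subunit, had 1.87, 3.94 and 4.35 CPM in epiblast libraries, against a lowest, median and highest of 15.6, 35.6 and 72.0 CPM in ICM libraries. It fell by 3.53 ± 0.44 on the log2 scale (adjusted p = 1.24e-05). MRPS26, specific to the small subunit, had 14.6, 14.2 and 12.4 CPM in epiblast libraries, against a lowest, median and highest of 54.8, 154 and 277 CPM in ICM libraries. It fell by 3.50 ± 0.55 on the log2 scale (adjusted p = 9.18e-05), and for both genes the groups were separate. MRPL12 had 35.2, 30.1 and 34.3 CPM in epiblast libraries, against 128, 313 and 744 CPM as the lowest, median and highest in ICM libraries, a fall by 3.49 ± 0.63 on the log2 scale (adjusted p = 0.000315). MRPL10 fell by 1.96 ± 0.30 on the log2 scale (adjusted p = 7.35e-05), so both stalk proteins were lower. MRPL55, the homologue of bacterial L31, had 3.67, 4.07 and 5.59 CPM in epiblast and 24.0 to 98.1 CPM in ICM libraries, and MRPS14 had 0.728, 0.347 and 0.603 CPM in epiblast and 1.97 to 13.5 CPM in ICM libraries. MRPL55 fell by 3.38 ± 0.46 on the log2 scale (adjusted p = 2.71e-05) and MRPS14 by 3.16 ± 0.77 on the log2 scale (adjusted p = 0.00312). The 8 largest falls were completed by MRPS11, which fell by 3.07 ± 0.34 on the log2 scale (adjusted p = 4.17e-06), and MRPS23, specific to the small subunit, which fell by 3.001 ± 0.52 on the log2 scale (adjusted p = 0.000216). Against the hatched ICM the largest falls were of MRPL24 (by 3.83 ± 0.42), MRPL55 (by 3.76 ± 0.51), MRPS14 (by 3.71 ± 0.87) and MRPL52 (by 3.51 ± 0.48).

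Members chosen for their place in the ribosome also fell. MRPL3 had 104, 98.2 and 104 CPM in epiblast and 177 to 404 CPM in ICM libraries and fell by 1.54 ± 0.22 on the log2 scale (adjusted p = 4.05e-05). MRPL45 had 107, 127 and 117 CPM in epiblast and 161 to 463 CPM in ICM libraries and fell by 1.26 ± 0.25 on the log2 scale (adjusted p = 0.000564). Neither gene overlapped between epiblast and ICM. MRPS18A fell by 1.92 ± 0.34 on the log2 scale (adjusted p = 0.000239) and MRPS18B by 2.62 ± 0.38 on the log2 scale (adjusted p = 4.33e-05). MRPL54 had a log2 change of -2.40 ± 0.69, MRPL41 of -2.34 ± 0.57 and MRPL4 of -2.27 ± 0.29.

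Sums of fibroblast and amnion markers were separate between epiblast and ICM libraries, while those of the other marker lists overlapped. All 5 fibroblast markers were called higher in epiblast, with sums of 1366 to 1534 CPM in epiblast and 0 to 28.2 CPM in ICM libraries, where DCN was at 0 in all 15. Amnion markers summed to 12.2 to 17.3 CPM in epiblast and 0 to 0.0824 CPM in ICM libraries, and pluripotency markers to 1162 to 1233 CPM in epiblast and 602 to 4897 CPM in ICM libraries. Trophectoderm markers summed to 14.5 to 19.2 CPM in epiblast and 5.75 to 1357 CPM in ICM libraries, and primitive endoderm markers to 435 to 519 CPM in epiblast and 469 to 4104 CPM in ICM libraries. In epiblast 3 of 5 pluripotency markers were called higher and 1 lower, and 1 trophectoderm and 1 primitive endoderm marker were called lower. The part of these markers in the fall was not tested. Hatched ICM replicate 1 had the lowest pluripotency sum and the highest trophectoderm sum of the ICM libraries, and without it 46 members were called lower than the mean of ICM stages and 38 lower than the hatched ICM. Leaving out 1 library at a time left 43 to 48 members called lower, and DESeq2 called 46.

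**Figure D3:**
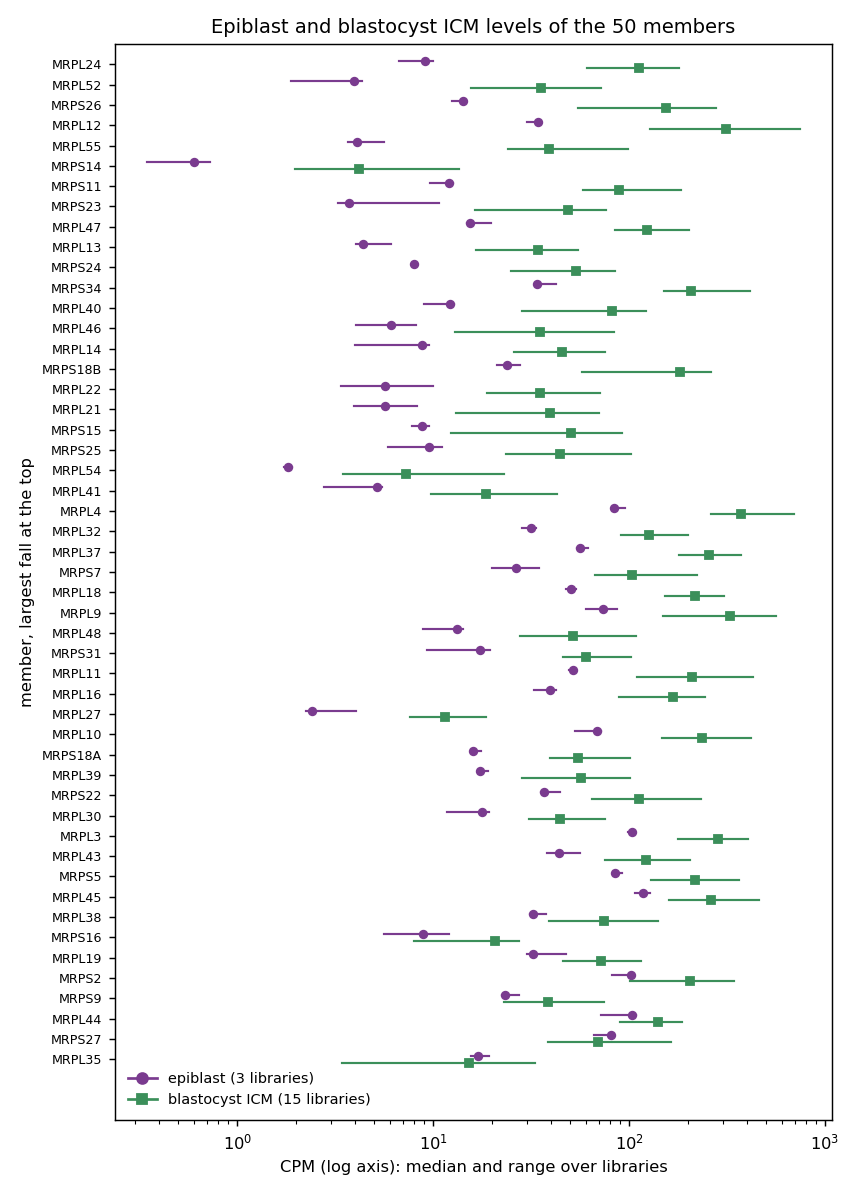
CPM (log scale) of each of the 50 members in the 3 epiblast libraries and the 15 ICM libraries, as the range from lowest to highest with the median marked, ordered by the change in epiblast. Epiblast ranges lie below ICM ranges for 43 of the 47 members called lower, and MRPS27 and MRPL35 overlap.

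The 3 members not called in epiblast against ICM were MRPL44, MRPL35 and MRPS27. MRPL35 had 19.2, 15.6 and 16.9 CPM in epiblast libraries, against a lowest, median and highest of 3.40, 15.2 and 33.0 CPM in ICM libraries, and the difference was 0.08 ± 0.46 (adjusted p = 0.916). MRPS27, a pentatricopeptide repeat protein of the small subunit, had 66.1, 80.4 and 82.0 CPM in epiblast and 38.3, 69.6 and 164 CPM in ICM libraries (0.04 ± 0.34, adjusted p = 0.958). For both, the epiblast libraries lay inside the ICM range. MRPL44, whose RNase III-like fold is known in the mammalian large subunit, had 71.5, 108 and 104 CPM in epiblast and 89.8, 141 and 187 CPM in ICM libraries (-0.54 ± 0.24, adjusted p = 0.0773). In ESCs MRPL35 was called higher in naive cells of both lines, and MRPS27 rose by 0.41 ± 0.07 in DSY-c2 (adjusted p = 8.39e-05) and by 0.40 ± 0.07 in N40 (adjusted p = 9.05e-05). The epiblast had the lowest mean of the 7 stages for 48 of 50 members. The same held for 27.3% of the 15885 genes with at least 1 CPM in at least 3 of the 39 libraries.

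**Figure D4:**
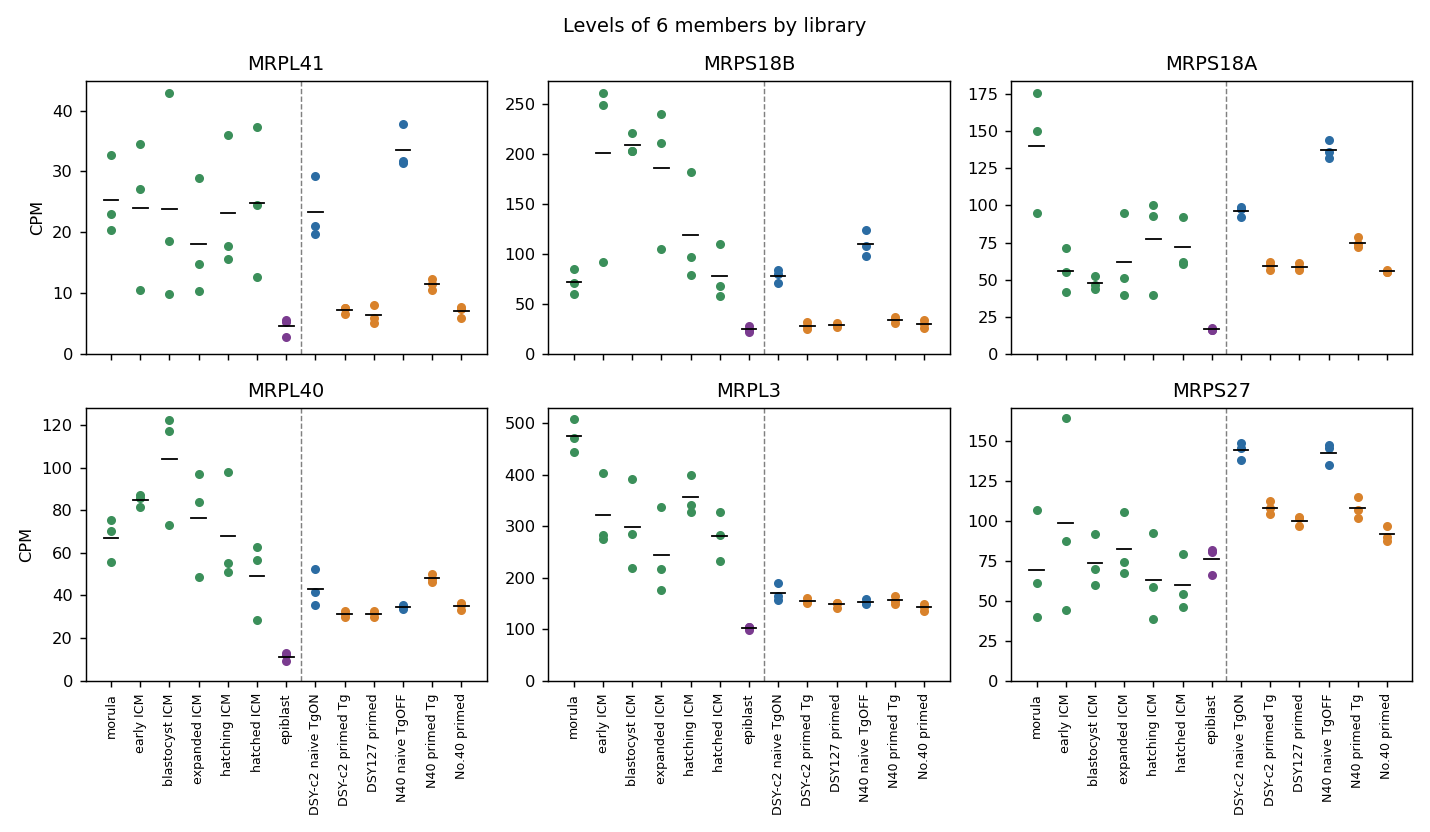
CPM of MRPL41, MRPS18B, MRPS18A, MRPL40, MRPL3 and MRPS27 in every library, by group, on the TMM scale within embryos (left of the dashed line) or within ESCs (right); points are libraries and bars are means of 3. MRPL41, MRPS18B and MRPS18A are higher in naive than in primed cells of both lines, MRPL40 is lower in naive than in primed N40 cells, and the MRPS27 epiblast points lie inside the ICM range.

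Taking the naive and epiblast comparisons together, 35 of 50 were called higher in naive cells of both lines and lower in epiblast than in ICM, where 9.61% of the 16136 genes tested in both fits were. N40 naive cells had the highest mean of the 6 ESC groups for 38 members, where they did for 24.8% of all genes, DSY-c2 naive cells for 10, where 23.7% of all genes did so, and N40 primed cells for 2, where 17.9% did.

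ESC and embryo libraries were set side by side on 1 TMM scale over all 39 libraries, without a test, since cultured cells and embryos differ in source and handling. Against the 6 hatching and hatched ICM libraries, the 6 naive ESC libraries lay wholly higher for 8 members, where 19.9% of all genes did, and wholly lower for 13, where 12.9% of all genes did. With library totals they lay wholly higher for 10 members, where 23.2% of all genes did, and wholly lower for 8, where 10.3% did. The median ratio of naive ESC to ICM means over the members was 0.690, and 35 members had a lower mean in naive ESCs. MRPL10 ran over 97.2 to 123 CPM in naive ESCs and 158 to 385 CPM in the ICM, while MRPL13 ran over 57.6 to 80.1 CPM in naive ESCs and 18.1 to 52.1 CPM in the ICM. The members that were wholly higher were MRPL13, MRPL22, MRPL27, MRPL35, MRPS9, MRPS14, MRPS16 and MRPS27. Against the epiblast, the 6 primed DSY127 and No.40 libraries lay wholly higher for 32 members, where 30.3% of all genes did, and wholly lower for 6, where 29.3% of all genes did. The median ratio of primed to epiblast means was 1.90, with 39 members higher in primed cells. MRPL24 ran over 38.3 to 54.5 CPM in the primed lines and 7.29 to 11.02 CPM in epiblast, whereas MRPL45 ran over 99.0 to 114 CPM in the primed lines and 117 to 141 CPM in epiblast. The 6 that were wholly lower in the primed lines were MRPL4, MRPL9, MRPL44, MRPL45, MRPS2 and MRPS34.

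**Figure D5:**
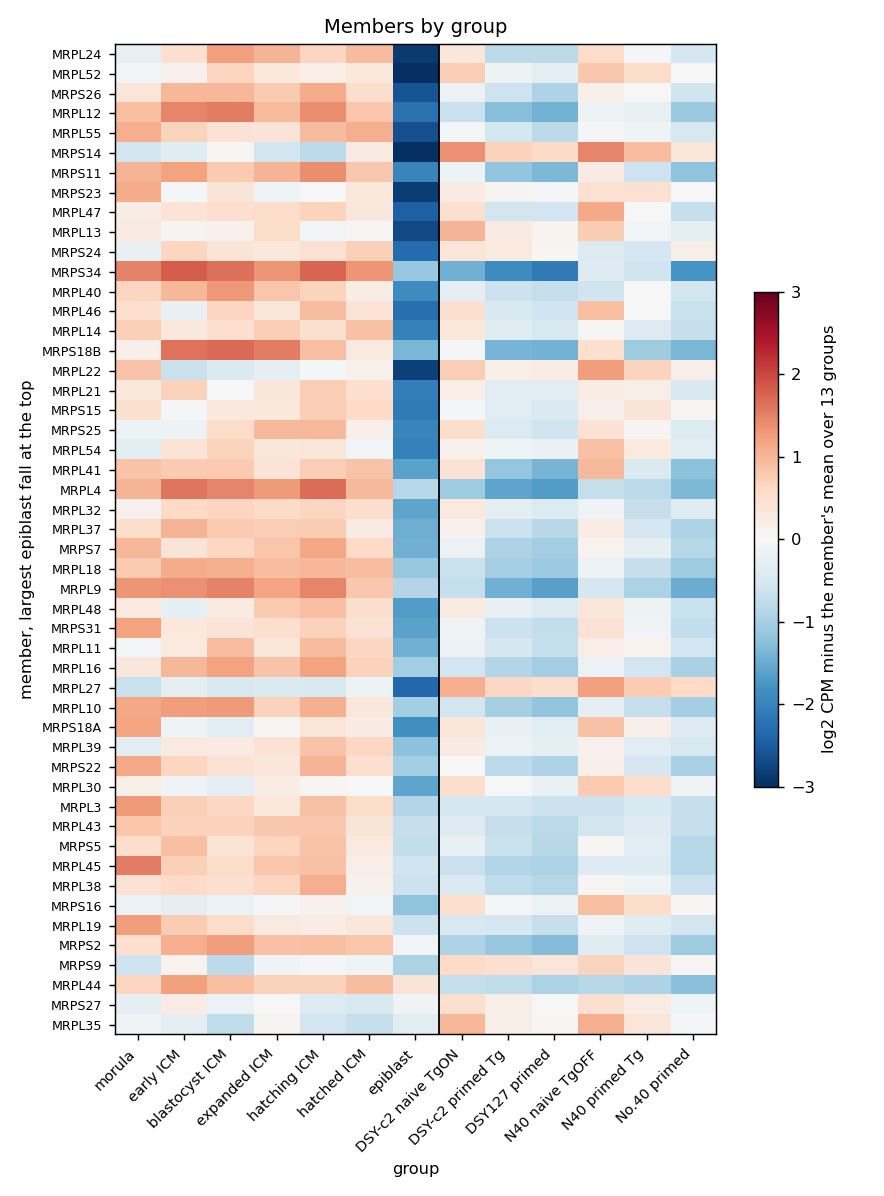
Log2 of the mean CPM of each of the 50 members in each of the 13 groups, minus the member's mean of these values over the groups. Levels are on the TMM scale over all 39 libraries. Rows are members, largest epiblast fall at the top, and columns are groups. The epiblast column is the lowest of the embryo stages for 48 members, and naive columns lie above primed columns of their line for most members.

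Ribosome proteins that carry other symbols, and are therefore no members, moved with them. All 5 listed, DAP3, PTCD3, CHCHD1, AURKAIP1 and GADD45GIP1, were called higher in naive cells of both lines, and 4 were called lower in epiblast than in ICM. Of all genes, 22.9% were called higher in naive cells of both lines and 18.7% lower in epiblast than in ICM. DAP3, a GTP-binding protein of the small subunit, had 162, 163 and 192 CPM in naive and 104, 89.6 and 105 CPM in primed DSY-c2 libraries (log2 fold change 0.79 ± 0.09, adjusted p = 1.42e-06), and 178, 199 and 185 CPM in naive and 131, 135 and 135 CPM in primed N40 libraries (log2 fold change 0.49 ± 0.09, adjusted p = 0.000168). Naive libraries were higher throughout. PTCD3, a pentatricopeptide repeat protein of the small subunit, rose by 0.90 ± 0.11 in DSY-c2 and 0.99 ± 0.11 in N40, and AURKAIP1, also of the small subunit, by 0.74 ± 0.10 in DSY-c2 and 0.53 ± 0.09 in N40. CHCHD1, of the small subunit, rose by 0.50 ± 0.08 in DSY-c2 and 0.27 ± 0.08 in N40, and GADD45GIP1, of the large subunit, by 0.48 ± 0.09 in DSY-c2 and 0.34 ± 0.09 in N40; in N40 both calls ended in a fit of the compared groups alone (adjusted p = 0.144 and 0.0715) and without N40 primed replicate 1 (adjusted p = 0.181 and 0.0949). The CHCHD1 call in N40 ended in addition with DESeq2's size factors, library totals, TMM over all 39 libraries or no low-count filter (adjusted p = 0.0525, 0.059, 0.193 and 0.155), and that of GADD45GIP1 with the same TMM factors or no filter (adjusted p = 0.0652 and 0.0674). It also ended for CHCHD1 without N40 primed replicate 3 (adjusted p = 0.131) and without N40 naive replicate 1 or 2 (adjusted p = 0.156 and 0.0504). In epiblast, AURKAIP1 fell by 2.71 ± 0.37 on the log2 scale (adjusted p = 3.00e-05), CHCHD1 by 2.54 ± 0.36 on the log2 scale (adjusted p = 4.17e-05), GADD45GIP1 by 1.87 ± 0.48 on the log2 scale (adjusted p = 0.00461) and DAP3 by 1.52 ± 0.24 on the log2 scale (adjusted p = 8.77e-05). PTCD3 had 167, 211 and 188 CPM in epiblast and 119.7, 191 and 372 CPM as the lowest, median and highest in ICM libraries, and was not called (-0.09 ± 0.26, adjusted p = 0.816). Like MRPS27, it is a small subunit protein with pentatricopeptide repeats, and a part of these repeats in the result was not tested.

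Of 39 mitochondrial transcription, translation and ribosome assembly factors matched, 30 were called higher and 2 lower in naive DSY-c2 cells, 28 higher and 1 lower in naive N40 cells, and 1 higher and 28 lower in epiblast against ICM. Of all genes, 29.6% were called higher and 29.3% lower in naive DSY-c2 cells, and 32.3% and 28.7% in naive N40 cells. In epiblast against ICM, 26.1% of all genes were called higher and 18.7% lower. MTRFR, which rescues stalled mitochondrial ribosomes, had 7.05, 5.42 and 8.01 CPM in naive and 2.31, 1.91 and 2.28 CPM in primed DSY-c2 libraries (log2 fold change 1.66 ± 0.28, adjusted p = 0.000105) and 8.04, 10.2 and 6.92 CPM in naive and 2.81, 1.75 and 1.30 CPM in primed N40 libraries (log2 fold change 2.10 ± 0.29, adjusted p = 8.85e-06). In DSY-c2 the largest rises were of the ribosomal RNA methyltransferase NSUN4 (1.68 ± 0.40, at under 1 CPM in every DSY-c2 library), MTRFR, the mitochondrial RNA polymerase POLRMT (1.23 ± 0.10), the assembly GTPase NOA1 (0.95 ± 0.10) and the initiation factor MTIF3 (0.92 ± 0.12). In N40 they were MTRFR, the release factor MTRF1 (1.25 ± 0.19), MTFMT, which formylates the initiator methionyl-tRNA (1.2005 ± 0.13), the RNA helicase SUPV3L1 (1.13 ± 0.07) and the transcription factor TFB2M (1.10 ± 0.10). The translational GTPase GUF1 was lower in both lines. It had 40.5, 32.8 and 36.4 CPM in naive and 67.6, 61.1 and 69.5 CPM in primed DSY-c2 libraries, and 35.1, 24.6 and 26.1 CPM in naive and 35.1, 44.3 and 59.5 CPM in primed N40 libraries, which met at their edge. It fell by 0.85 ± 0.17 in DSY-c2 (adjusted p = 0.000399) and by 0.69 ± 0.17 in N40 (adjusted p = 0.00198), and the matrix protease LONP1 fell by 0.40 ± 0.10 in DSY-c2 (adjusted p = 0.0033). In epiblast MTRFR had 0 counts in all 3 libraries, against 0 to 6.77 CPM in ICM libraries, a call lost without any 1 epiblast library (adjusted p = 0.0629, 0.0626 and 0.0623). MTERF3, a factor of mitochondrial transcription and ribosome assembly, fell by 2.998 ± 0.40 on the log2 scale (adjusted p = 2.25e-05), the RNA-binding protein SLIRP by 2.75 ± 0.46, the ribosomal RNA methyltransferase MRM2 by 2.68 ± 0.51 and the elongation factor TSFM by 2.56 ± 0.24, while the RNA helicase DHX30 rose by 0.82 ± 0.24 (adjusted p = 0.0103).

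Cytosolic ribosomal proteins, which serve general translation, were taken from a list of which 40 matched. In naive DSY-c2 cells 39 of 40 were called higher (29.6% of all genes) and 0 lower (29.3% of all genes), with a median of 0.47. In naive N40 cells 19 of 40 were called higher (32.3% of all genes) and 1 lower (28.7% of all genes), with a median of 0.20. Their sums were 36290.5, 36539 and 47436 CPM in naive and 29024, 26385 and 29386 CPM in primed DSY-c2 libraries, and 44246, 42901 and 46682 CPM in naive and 36671, 38694 and 37442 CPM in primed N40 libraries. N40 primed Tg cells had 27 called higher than in No.40 cells, where 8.3% of all genes were, and 0 lower, where 13.6% were. In epiblast all 40 were called lower than in ICM, where 18.7% of all genes were, with a median of -2.41. Against the hatched ICM alone all 40 were called lower too, where 12.7% of all genes were, with a median of -2.59. The fall in epiblast also covered cytosolic ribosomal proteins, and a difference between both families was not tested.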

How the data were processed

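The authors deposited raw counts for each gene in 39 libraries, made from stranded poly(A)+ libraries (RNeasy Mini and TruSeq Stranded mRNA LT kits, per the labels' protocols). Per the submitters' processing notes the tools were Trim Galore 0.4.0 for trimming, STAR 2.5.3a for alignment and featureCounts 1.5.2 for counting. Genome build, annotation and strand setting were not given in the sources used here.

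Each library had 2 columns, which were summed: the chi-square per gene between them was 1.91 to 2.00 (genes of at least 50 counts), against at least 28.1 between libraries of a group. Another 6 columns, of 3 libraries, matched no sample and were not used. Even numbers made up 65.0% of counts from 1 to 49 and 50.8% of counts from 500 up, so mates of a pair may have been counted separately, and a repeat with halved counts was run. Symbols came from the reference gene table by gene ID.

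Groups followed the sample titles. ESC libraries (17957 genes tested) and embryo libraries (16929) were fitted separately with edgeR 4.0.16 in R 4.3.3 (filterByExpr, TMM, robust quasi-likelihood F test), with calls at a Benjamini-Hochberg adjusted p under 0.05 over all genes. Each SE was the log2 fold change divided by the square root of F, without its sign. CPM used TMM-scaled library sizes. With 3 libraries a group, the spread between libraries limited precision more than depth did, and CPM ranges cover no counting error. Simulated data with known changes, drawn from the means, sizes and fitted spread of these libraries, were run through the same fit. Since they were drawn from the fitted model, they cannot show whether that model suits these data.

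Comparisons were made of naive against primed cells in each line, of the 2 effects with each other, of primed Tg cells with DSY127 or No.40, of DSY127 with No.40, of each stage with the one before, of epiblast with the mean of the ICM stages, of all stages by an F test, and, untested, of ESCs with embryos. The alternatives were other size factors, library totals, TMM over all libraries, other filters, halved counts, DESeq2 1.42.0, the compared groups alone, 1 fit of all libraries, the replicate number as a block, and leaving out each library. Replicate numbers were not taken to pair libraries, since the correlations of their deviations ran from -0.22 to 0.13.

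The members and lists (ribosome proteins by class, those under other symbols, translation and assembly factors, cytosolic ribosomal proteins, and markers of pluripotent, trophectoderm, primitive endoderm, fibroblast and amnion cells) were chosen with earlier results of these data known. Named were the 10 largest changes each way in each naive comparison, 8 for epiblast against ICM, 5 for the difference and 4 elsewhere, members with a set place in the ribosome (MRPL3, MRPL10, MRPL12, MRPL45, MRPS18A and MRPS18B of those measured), the 3 members with the highest and the 3 with the lowest mean CPM, all ribosome proteins under other symbols, and up to 5 translation factors each way. MRPL43 and the members listed as not called, or as wholly higher or lower than embryos, were named after their values were seen.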

Additional observations from a re-analysis of the deposited data

Results flagged for a closer look

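The naive effect differed between the lines for 6 members and for 4 of 39 translation or assembly factors. Calls were made by the interaction term of edgeR's quasi-likelihood fit (DSY-c2 effect minus N40 effect, log2, 3 libraries a group). MRPL40 had the largest value among members, 0.94 ± 0.16 (adjusted p = 0.00115), and naive cells lay above primed cells in 3 of 3 DSY-c2 libraries and below them in 3 of 3 N40 libraries. The others were MRPL52 with 0.60 ± 0.16 (adjusted p = 0.0197), MRPS25 with 0.52 ± 0.16 (adjusted p = 0.0333), MRPL12 with 0.50 ± 0.14 (adjusted p = 0.0225), MRPS15 with 0.45 ± 0.12 (adjusted p = 0.0176) and MRPL43 with 0.43 ± 0.12 (adjusted p = 0.0286). Over all genes 15.1% were called for this term, against 6 of 50 members, and the count of members was 3 to 9 with 1 library left out, 4 with library totals and 0 in 1 fit of all 39 libraries. Of the 39 factors 2 were called higher and 2 lower, or 10.3% in either direction, against 15.1% of all genes. The 2 called higher were not among the named genes. Those called lower were the mitochondrial protease LONP1 with -0.71 ± 0.15 (adjusted p = 0.00477) and the mitochondrial transcription factor TFB2M with -0.74 ± 0.15 (adjusted p = 0.00337). The naive cells are TgON in DSY-c2 and TgOFF in N40, which cannot be told apart from the line.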

How the results depend on the processing

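Counts of called members in the other comparisons and settings stayed within 1.5 times those reported. In 1 fit of all 39 libraries, where ESCs share a spread with embryos, 7 members were called higher in naive DSY-c2, 4 higher and 0 lower in naive N40, 0 for the difference of the naive effects, 1 higher and 0 lower for N40 Tg against No.40, 0 either way for DSY127 against No.40, 4 higher and 6 lower for early ICM against morula, and 1 lower for blastocyst against early ICM. With the compared groups alone, N40 Tg against No.40 gave 16 higher and 1 lower, DSY127 against No.40 gave 0 higher, and early ICM against morula gave 0 and 0. With library totals, naive N40 had 2 lower, early ICM against morula 2 lower, and naive ESCs against ICM 8 wholly lower. TMM over all 39 libraries gave 2 lower in naive N40. For early ICM against morula, DESeq2's size factors gave 0 higher, no filter 0 lower and DESeq2 3 lower, and DESeq2 gave 5 lower for DSY127 against No.40. The cause of each of these changes was not tested. Replicate numbers did not pair libraries; with the replicate number as a block, 1 member, MRPL40, was called for the difference, 1 higher for DSY127 against No.40 and 0 lower for early ICM against morula, and MRPL4 was called higher in naive N40 (log2 0.25, adjusted p = 0.033). Leaving out 1 library at a time gave ranges of 1 to 2 lower in naive N40, 3 to 9 for the difference, 1 to 2 lower for N40 Tg against No.40, 0 to 2 higher and 1 to 3 lower for DSY127 against No.40, and 0 to 1 each way for early ICM against morula. Neither uncalled value that changed sign was called in any setting: PTCD3 in epiblast against mean of ICM stages was 0.157 with DESeq2's size factors or with DESeq2, 0.0125 with totals and -0.159 to 0.0793 with 1 library left out, and MRPL3 in DSY-c2 was -0.0233 with totals. Scaling moved the median log2 change of all genes, which was 0.03 in DSY-c2, 0.09 in N40 and 0.20 in epiblast against ICM, to -0.13 in DSY-c2 with totals, -0.05 in N40 with TMM over all 39 libraries and 0.44 in epiblast with DESeq2's size factors, and the medians of members were then 0.45, 0.38 and -1.95. For the 108 values of named genes, the settings other than the fit of all libraries and left-out libraries kept direction and call in 936 cases, lost a call in 30, gained 1 and changed a sign in 4. In the fit of all 39 libraries, 57 of the 108 values kept direction and call and 51 lost the call. Leaving out 1 library kept direction and call in 965 cases, lost a call in 40 and changed a sign in 3.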
